A study of Mus musculus with 18 samples.

Results

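A group of 6 genes that link the intestinal epithelium to its resident lymphocytes were followed through 18 mouse colon libraries. They were the butyrophilin-like genes *Btnl1*, *Btnl2*, *Btnl4* and *Btnl6*, the thymus leukaemia antigen gene *H2-T3*, and *Il15*. These 6 of the 47729 genes in the count table were chosen by name with their levels in these libraries already known, so their levels and fold changes are descriptions, and their calls support nothing by themselves. All 6 were among the 16937 genes tested.

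RNA was sequenced from colon tissue. The mice were WT or *Cldn2*KO, the latter with a knockout of claudin-2, a tight junction protein that forms a paracellular channel. All mice were on the C57BL/6 background, and the study's methods describe WT littermates and age- and sex-matched animals. Each genotype was sampled as controls, after recovery from injury by dextran sulfate sodium (DSS, which damages the lining of the colon), or after the carcinogen azoxymethane plus DSS (AOM/DSS, which gives tumours in inflamed colon). The labels give a single AOM dose of 10 mg/kg and 3 cycles of 2.5% DSS. Doses for the recovery arm and the age of the mice were not given in the sources used here. Each of the 6 groups held 3 libraries, with 17.6 to 27.4 M counted reads each (median 19.6). Levels are TMM-scaled counts per M reads (CPM).

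Butyrophilin-like proteins are membrane proteins of enterocytes related to the B7 family. In the mouse gut, Btnl1 and Btnl6 act as a pair at the surface of villus and crypt epithelium and shape the local subset of gamma delta intraepithelial T cells, and Btnl4 can take part in such pairs. Btnl2 has been described as an inhibitor of T cell activation. H2-T3 is one of the thymus leukaemia antigens, class Ib MHC proteins of the intestinal epithelium that bind the CD8 alpha homodimer of intraepithelial lymphocytes. Interleukin-15 is presented by epithelial cells on its receptor chain Il15ra and maintains these lymphocytes.

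Of the 6 genes, 5 lie on chromosome 17, in or near the major histocompatibility complex. In the coordinates of the count table (GRCm38), *Btnl2* spans chr17:34354822-34369493 and *Btnl1* chr17:34377132-34385776 on the plus strand. *Btnl4* spans chr17:34469042-34475937 and *Btnl6* chr17:34507804-34517352, both on the minus strand, with the pseudogene *Btnl5-ps* between them at chr17:34488070-34497429. *H2-T3* spans chr17:36185572-36190287 on the minus strand. *Il15* lies apart at chr8:82331637-82403222 on the minus strand. No annotated gene overlapped any of the 6 on either strand.

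The upstream sequences of *Btnl4* and *Btnl6* are shown because *Btnl4* and *Btnl6* varied together across the libraries, and those of *Btnl2* and *H2-T3* because they share a motif. Each *Btnl* run holds the 250 bases before the RefSeq start (GRCm38.p6), written 5′ to 3′ on the strand of the gene. Capitals mark matches to motif letters described after the sequences.
Btnl2, chr17:34354572-34354821 (plus): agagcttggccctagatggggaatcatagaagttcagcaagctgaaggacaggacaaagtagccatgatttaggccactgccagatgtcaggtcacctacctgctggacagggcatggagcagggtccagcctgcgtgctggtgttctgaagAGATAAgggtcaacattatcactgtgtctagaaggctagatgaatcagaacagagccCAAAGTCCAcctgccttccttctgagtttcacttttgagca
Btnl4, chr17:34475938-34476187 (minus): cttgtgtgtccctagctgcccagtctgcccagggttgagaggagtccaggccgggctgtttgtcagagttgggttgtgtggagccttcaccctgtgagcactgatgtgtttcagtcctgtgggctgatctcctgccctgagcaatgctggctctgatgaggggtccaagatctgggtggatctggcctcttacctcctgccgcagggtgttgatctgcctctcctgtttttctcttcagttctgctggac
Btnl6, chr17:34517353-34517602 (minus): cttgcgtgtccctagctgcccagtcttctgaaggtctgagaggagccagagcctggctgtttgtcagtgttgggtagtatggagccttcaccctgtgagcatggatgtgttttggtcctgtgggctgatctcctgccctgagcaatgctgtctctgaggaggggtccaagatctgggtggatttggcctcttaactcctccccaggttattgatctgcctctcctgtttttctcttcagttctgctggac
H2-T3, chr17:36190152-36190181 (minus): gagattgcaagttaCAAAGTCCAggacttt
For *H2-T3* only the 30 bases before the RefSeq start are shown, since longer GENCODE transcripts begin further upstream and these bases lie in their untranslated first exon. The whole *Btnl4* window also lies inside the GENCODE span of that gene (chr17:34466562-34477318). It is therefore upstream of the RefSeq start only, and its likeness to the *Btnl6* window is not shown to be one of promoters. The *Btnl4* and *Btnl6* windows were identical at 90.5% of 252 aligned positions, whereas every other pair among the 5 genes with an entry (*Btnl1* included) was identical at 46.5% to 50.4%. The letters CAAAGTNCA, a core of HNF4 recognition sequences, stood 41 bases before the start of *Btnl2* and 16 bases before that of *H2-T3*. They were present on either strand in 1.19% of 32851 promoter windows of the same length. *Btnl2* also held the GATA letters AGATAA 98 bases before its start, as did 9.99% of windows. The caudal-type letters TTTATNG, part of sequences bound by Cdx and posterior Hox proteins, stood 44 bases before the start of *H2-T3*, outside the bases shown, and were in 9.81% of windows. The STAT letters TTCNNNGAA (7.02% of windows) and the IRF letters GAAANNGAA (7.13%) were in none of the 5 windows. Motifs did not overlap each other in these windows. A match is a description of letters, not a site.

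Before any comparison, 7 libraries stood apart from the other 11. *Hoxb13*, a posterior Hox gene of the distal colon, was at 198 to 570 CPM in 11 libraries and at 0 to 0.502 CPM in the 6 recovery libraries and in WT control replicate 2. The same 7 libraries held 214 to 337 CPM of *Cdx2* against 13.6 to 31 CPM in the other 11, and 1470 to 3300 summed CPM of 8 small intestinal markers against 35.8 to 142. In these 7, *Mptx2* was at 0 among the 8 markers, and *Apoa4* was at 0 in the other 11. *Hoxb13* status therefore cannot be told apart from recovery in *Cldn2*KO mice, and within the WT controls it divides 1 library from 2. The study gives the distal colon as the source of the recovery RNA. *Hoxb13*, a marker of that segment, was absent or nearly so in those libraries. Which segment each library came from was not tested. Member values in comparisons that use WT control replicate 2 are also given without it, and list counts where they changed. *Cldn2* was at 0.0555 to 0.557 CPM in the 9 knockout libraries and at 44.5 to 504 CPM in the 9 WT libraries. *Xist* exceeded 100 CPM in 6 of the 18 libraries, namely replicates 2 and 3 of each recovery group and of *Cldn2*KO AOM/DSS, and in none of WT AOM/DSS or the controls. Sex-linked expression thus differed between some groups compared, such as WT and *Cldn2*KO AOM/DSS, although the methods describe sex-matched mice. Epithelial markers (10 genes, all detected in every library) summed to 14600 to 27900 CPM. The libraries are whole tissue, in which fewer cells of a type and less RNA per cell cannot be told apart.

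**Figure D1:**
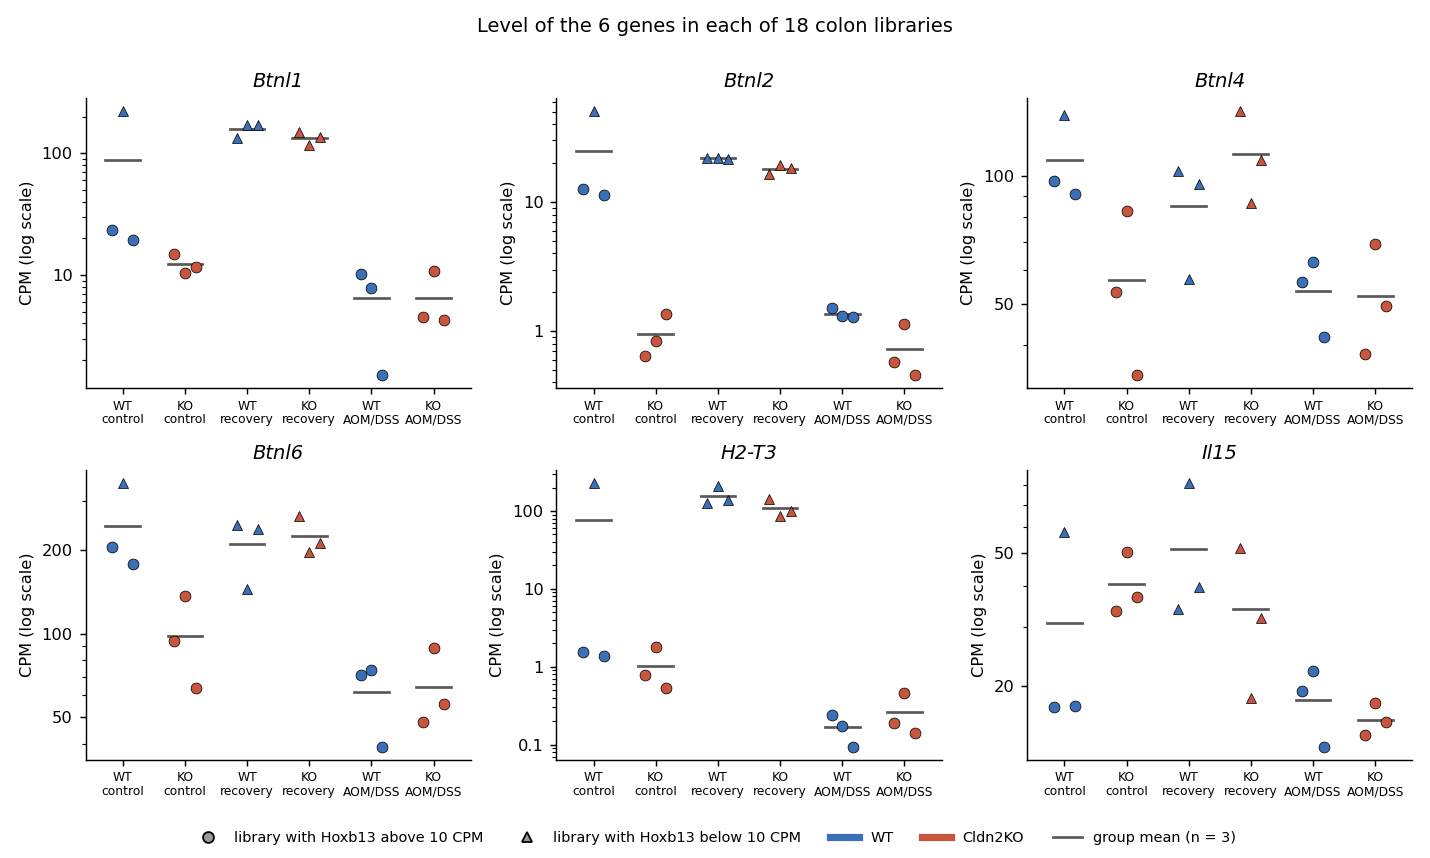
CPM (log axis) of each of the 6 genes in the 18 libraries by group. Points are libraries, horizontal bars are means of 3, and triangles mark libraries with *Hoxb13* below 10 CPM: *H2-T3* is at 87.2 to 229 CPM in the triangles and at 0.0946 to 1.78 CPM in the circles.

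*Btnl1* was one of the genes that followed this division of the libraries. In the controls it was at 23.6, 222 and 19.5 CPM in WT replicates 1 to 3 and at 14.8, 10.3 and 11.6 CPM in *Cldn2*KO replicates 1 to 3. In recovery it was at 135, 172 and 170.0 CPM in WT and at 150.0, 117 and 136 CPM in *Cldn2*KO. In AOM/DSS it was at 10.2, 7.84 and 1.51 CPM in WT and at 4.52, 10.8 and 4.23 CPM in *Cldn2*KO. The recovery groups were high and overlapped each other, the AOM/DSS groups were low and overlapped each other, and WT control replicate 2 sat above every other library. The order of the group means was WT recovery, *Cldn2*KO recovery, WT control, *Cldn2*KO control and then both AOM/DSS groups at 6.52 CPM, and among neighbours in this order the *Cldn2*KO controls did not overlap the WT controls, or the WT AOM/DSS libraries by a narrow margin (10.3 against 10.2 CPM).

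*H2-T3* showed the same division with a wider range. In the controls it was at 1.57, 229 and 1.37 CPM in WT and at 0.789, 1.78 and 0.538 CPM in *Cldn2*KO. In recovery it was at 127, 211 and 137 CPM in WT and at 143, 87.2 and 100 CPM in *Cldn2*KO. In AOM/DSS only 5, 4 and 2 reads fell on it in WT and 4, 14 and 4 reads in *Cldn2*KO, or 0.0946 to 0.454 CPM. It ran from 2 to 3501 reads a library, the largest ratio of highest to lowest among the 6 genes, and its WT control mean of 77.4 ± 131 CPM (SD, n = 3) was set by replicate 2. About 0.894% of its 50-base transcript windows also occur in other transcripts, among them *Gm11127* and *H2-Q5*, so its level carries that uncertainty.

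*Btnl2* followed the same division and also separated the genotypes among controls. In WT controls it was at 12.7, 50.4 and 11.4 CPM, and in *Cldn2*KO controls at 0.641, 0.832 and 1.35 CPM, from 13 to 25 reads a library. In recovery it was at 22, 21.9 and 21.6 CPM in WT and at 16.6, 19.3 and 18.3 CPM in *Cldn2*KO. In AOM/DSS it was at 1.5, 1.31 and 1.28 CPM in WT and at 0.571, 1.14 and 0.458 CPM in *Cldn2*KO. The control groups were thus far apart, whereas the recovery groups, though they did not overlap, were near each other. The *Cldn2*KO controls overlapped both AOM/DSS groups.

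*Btnl4* and *Btnl6* varied far less. In the controls *Btnl6* was at 205, 348 and 178 CPM in WT and at 93.7, 136 and 63.9 CPM in *Cldn2*KO. In recovery it was at 246, 145 and 237 CPM in WT and at 265, 196 and 212 CPM in *Cldn2*KO. In AOM/DSS it was at 71.1, 73.8 and 39.2 CPM in WT and at 47.9, 88.7 and 55.9 CPM in *Cldn2*KO. The WT controls and all 6 recovery libraries lay above the highest *Cldn2*KO control, and every AOM/DSS library lay below every WT control. *Btnl4* had group means of 109 ± 26.1 CPM in WT controls, 56.9 ± 24.6 in *Cldn2*KO controls, 85.1 ± 24.4 in WT recovery, 112 ± 27.9 in *Cldn2*KO recovery, 53.8 ± 10.8 in WT AOM/DSS and 52.3 ± 15.6 in the *Cldn2*KO AOM/DSS libraries (each as mean and SD of 3). Its WT controls did not overlap the *Cldn2*KO controls, while the 2 recovery groups overlapped, as did the *Cldn2*KO controls and both AOM/DSS groups.

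*Il15* overlapped between the clusters, at 13.2 to 50.6 CPM in the 11 libraries and 18.5 to 81.2 CPM in the 7. It was at 17.3, 57.8 and 17.4 CPM in WT controls and at 33.5, 50.6 and 37 CPM in *Cldn2*KO controls. In recovery it was at 34, 81.2 and 39.6 CPM in WT and at 51.8, 18.5 and 32.1 CPM in *Cldn2*KO. In AOM/DSS it was at 19.3, 22.2 and 13.2 CPM in WT and at 14.3, 17.8 and 15.6 CPM in *Cldn2*KO. The AOM/DSS libraries, WT control replicates 1 and 3 and *Cldn2*KO recovery replicate 2 were low together, at 13.2 to 22.2 CPM. The other libraries were at 32.1 CPM or more, with overlap between their groups.

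Per kb of exon, the order of the 6 genes by median over the 18 libraries was *Btnl6* (80.3 CPM per kb), *Btnl4* (43.2), *Il15* (14.2), *Btnl1* (9.23), *Btnl2* (2.49) and *H2-T3* (0.54). In the 6 recovery libraries *Btnl1* reached a median of 76.7 CPM per kb and *H2-T3* 48.4, next to 128 for *Btnl6* and 56.2 for *Btnl4*. In the 6 AOM/DSS libraries the medians were 3.32 for *Btnl1* and 0.0669 for *H2-T3*, next to 36.3 for *Btnl6* and 30.1 for *Btnl4*. The partner genes *Btnl1* and *Btnl6* were thus nearer in level per length in recovery than in AOM/DSS. This was not particular to recovery, since in WT control replicate 2 they were at 119 and 199 CPM per kb. In WT control replicates 1 and 3 their medians were 11.6 and 109.

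*Btnl4* and *Btnl6* share part of their transcript sequence with the pseudogenes *Btnl5-ps* and *Btnl7-ps*. Of the 50-base windows of *Btnl4* transcripts, 14% also occur in another gene's transcripts (9.11% in *Btnl5-ps* and 4.94% in *Btnl7-ps*), and of those of *Btnl6* 6.58%. Of 100-base windows, 3.16% and 0.0605% were shared. The counts of these genes are therefore uncertain in part, since the handling of reads with several alignments was not given in the sources used here. *Btnl5-ps* was itself at 123 to 432 CPM, above *Btnl4* in all 18 libraries. No 50-base window of *Btnl1*, *Btnl2* or *Il15* was shared.

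**Figure D2:**
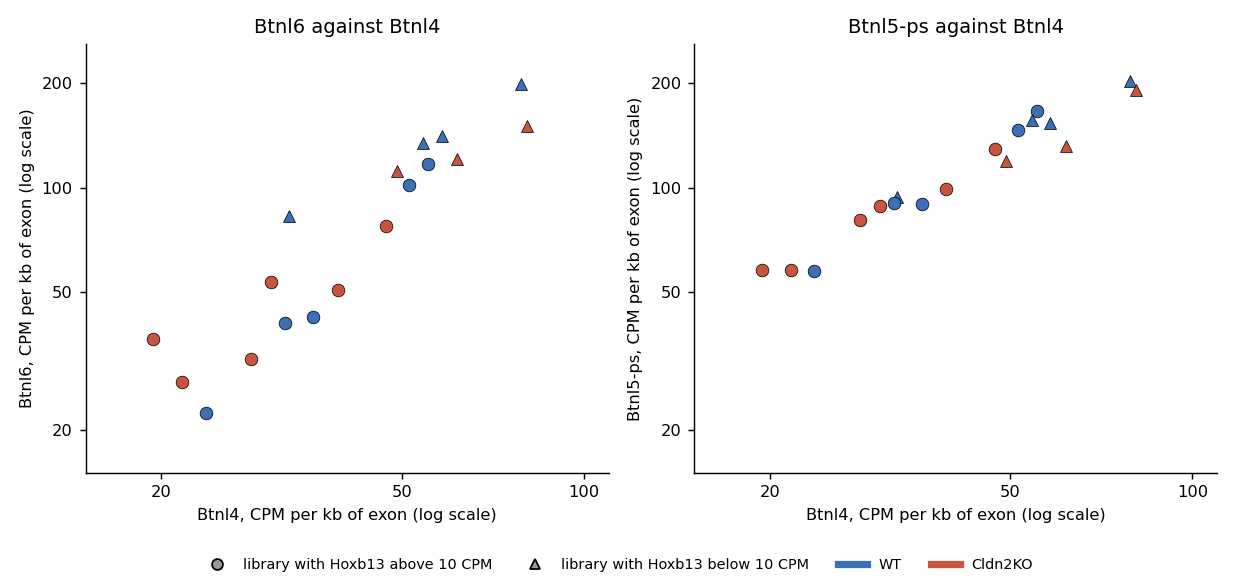
CPM per kb of exon (log axes) of *Btnl6* (left) and *Btnl5-ps* (right) against *Btnl4*, with 1 point per library, colours for genotype and triangles for libraries with *Hoxb13* below 10 CPM. The genes rise together in both sets of libraries, with *Btnl4* from 19.4 to 80.6 and *Btnl6* from 22.4 to 199 CPM per kb.

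Because the libraries fell into 2 clusters, likeness between genes is given within each cluster, as Pearson's r of log2 CPM across libraries that share genotype and treatment differences. *Btnl4* and *Btnl6* had r = 0.9 over the 11 libraries and 0.91 over the 7. *Btnl1* and *H2-T3* had 0.81 and 0.91, and *Btnl1* and *Btnl6* had 0.86 and 0.42. *H2-T3* and *Il15* had 0.55 and 0.91, and *Btnl4* and *Il15* had 0.09 and -0.11. *Btnl4* with *Btnl6* and *Btnl1* with *H2-T3* therefore varied together in both clusters, whereas *Btnl1* with *Btnl6* had the higher r in the 11. Differences in r between the clusters were not tested.

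Of all genes tested, those most like each member were ranked by r over all 18 libraries, and their r within each cluster is given here. For *Btnl1* it was *Maoa*, a monoamine oxidase (r = 0.927 within the 11 libraries and 0.852 within the 7), then *Sult1d1* (0.873 and 0.878) and *Pxmp4* (0.875 and 0.755). For *Btnl2* it was *Apol10a* (0.938 and 0.146), *Btnl7-ps* (0.851 and 0.661) and *Cystm1* (0.828 and 0.426). For *H2-T3* it was the hexokinase-like *Hkdc1* (0.913 and -0.714), *Abhd6* (0.797 and 0.746) and 1810065E05Rik (0.692 and 0.799). The likeness of *Apol10a* and of *Hkdc1* thus rested on the 11 libraries and on the step between clusters. *Btnl4* was most like *Btnl5-ps* (0.98 and 0.938), *Btnl6* and the vesicle coat gene *Sec23a* (0.882 and 0.932). *Btnl6* was most like *Btnl5-ps* (0.949 and 0.967), *Gna11* (0.891 and 0.68) and *Btnl7-ps* (0.904 and 0.632). *Il15* was most like *Tsc22d1* (0.933 and 0.963), *Cgrrf1* (0.944 and 0.923) and the zinc and manganese transporter gene *Slc30a10* (0.91 and 0.873).

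The first comparison asked whether loss of claudin-2 altered these genes in mice without injury. *Btnl2* was 26.4-fold lower in *Cldn2*KO than in WT controls (0.94 ± 0.364 against 24.8 ± 22.2 CPM, SD, n = 3 each), a log2 fold change of -4.72 ± 0.538 (SE). It was the 1 member of 6 called by edgeR's quasi-likelihood test at a Benjamini-Hochberg adjusted p under 0.05 over all genes (adjusted p = 0.000755), where 1.17% of tested genes were called. *H2-T3* (-6.22 ± 1.51), *Btnl1* (-2.85 ± 0.804), *Btnl6* (-1.32 ± 0.343) and *Btnl4* (-0.94 ± 0.322) had lower fitted values and did not pass with edgeR, and *Il15* was at 0.39 ± 0.465. DESeq2 also called *H2-T3*, *Btnl1* and *Btnl6* lower. With limma-voom *Btnl4* and *Btnl6* were also called lower and *Il15* higher (1.06). Without WT control replicate 2, *Btnl2* was 12.8-fold lower (-3.7 ± 0.324, adjusted p = 5.24e-05, again the 1 member called, against 1.14% of genes), while *H2-T3* moved to -0.55 ± 0.451 and *Btnl1* to -0.84 ± 0.498. *Btnl4* (-0.75), *Btnl6* (-0.99) and *Il15* (1.19 ± 0.406) did not pass either. *Btnl2* was called in 15 of 16 alternatives, the exception being the fit to these groups alone (adjusted p 1.68e-17 to 0.0651).

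**Figure D3:**
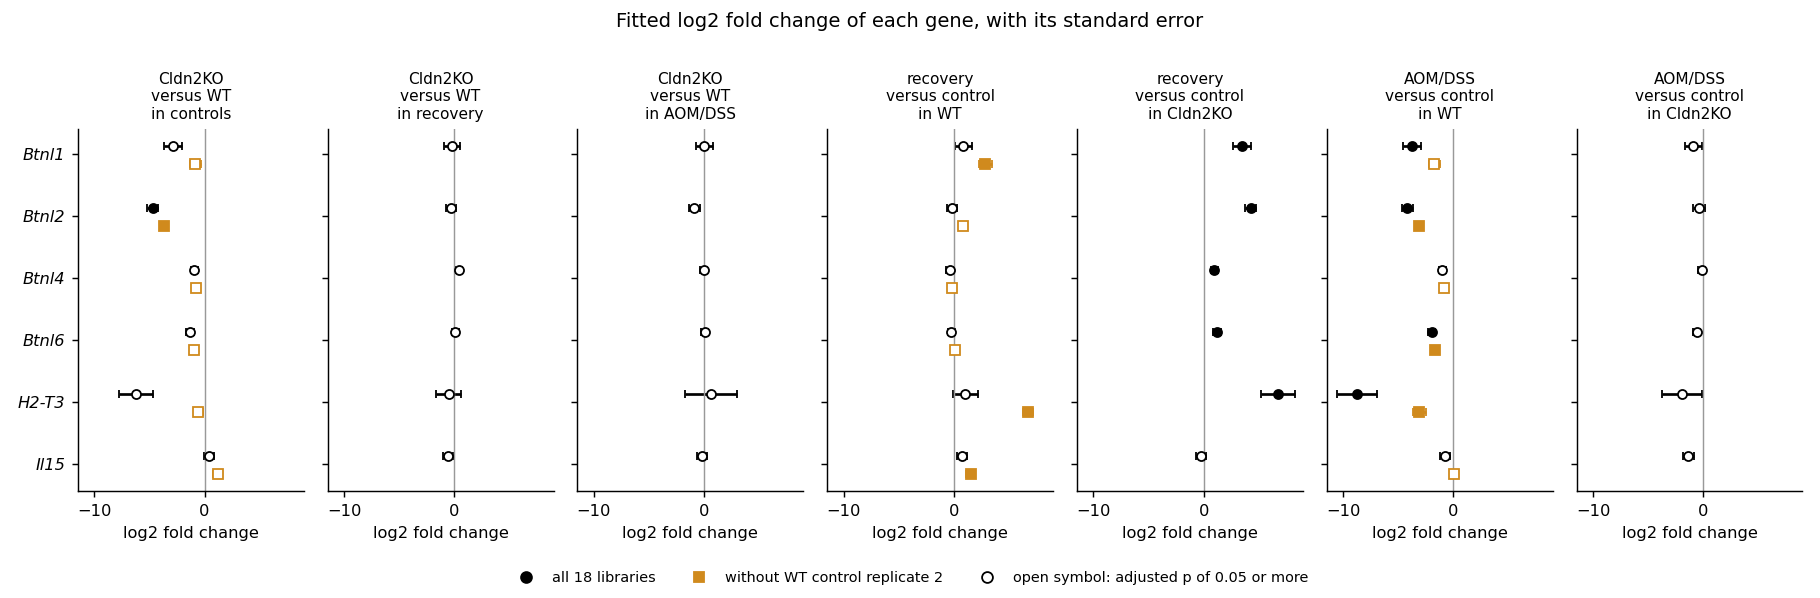
Fitted log2 fold change of each gene (x axis) with its standard error in 7 comparisons, from all 18 libraries (black) and, where it changes the samples used, without WT control replicate 2 (orange squares). Filled symbols have an adjusted p under 0.05: *Btnl2* is filled in the control comparison both ways, at -4.72 and -3.7.

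Other genes of the same biology differed between the control groups. Over all genes 1.17% were called, or 1.14% without WT control replicate 2. Of 14 T cell receptor and CD8 genes tested, 3 were lower in *Cldn2*KO and none higher (median log2 fold change -3.05, all genes -0.01): *Cd3e* of the T cell receptor complex (-4.28 ± 0.988), *Cd8a* (-3.89 ± 0.859) and the gamma chain constant gene *Trgc2* (Tcrg-C2 in the count table, -3.6 ± 0.822). All 14 had an unadjusted p under 0.05, but none was called by edgeR without WT control replicate 2 (median -1.62, *Cd8a* -1.73 ± 0.506), which had the highest sum of 8 T and NK cell markers, 73.8 CPM against 2.5 to 16.2 in the other 5 controls. Of 16 genes of the intraepithelial lymphocyte phenotype, 3 were lower, namely the chemokine *Ccl5* (-5.36 ± 1.03), granzyme B (*Gzmb*, -4.64 ± 1.03) and *Cd7* (-4.46 ± 0.855), and *Ccl5* (-3.28) and *Cd7* (-2.93) remained called without that library. The B and plasma cell markers (7 genes, all detected) also moved with genotype, at 1530 to 1700 summed CPM in WT and 22 to 266 CPM in *Cldn2*KO controls. Their part in these results was not tested.

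Some antigen presentation and interferon genes were called lower in *Cldn2*KO controls with or without that library, while most of each list did not pass. With all libraries, the fitted values were negative for 19 of 20 MHC class I genes and 17 of 17 interferon genes. In edgeR 17 of the 20 and 17 of the 17 had an unadjusted p under 0.05. Of 20 other MHC class I and class Ib genes, 9 were lower and none higher (9 also without WT control replicate 2), where 1.17% of all genes were called (1.14% without it), with a median log2 fold change of -1.36. *B2m*, the light chain that class I molecules including the thymus leukaemia antigen need at the surface, was at 1450, 2480 and 1800.0 CPM in WT and at 383, 301 and 540.0 CPM in *Cldn2*KO (-2.23 ± 0.292). *Nlrc5*, the class I transactivator, was at -4.06 ± 0.642, *H2-Q7* at -3.81 ± 0.766 and *H2-Q6* at -3.58 ± 0.644. Of 17 interferon response genes, 8 were lower and none higher (8 of 18 without that library), led by *Iigp1* (-3.39), *Oasl2* (-3.0) and *Igtp* (-2.28). *Irf1*, an interferon-induced transcription factor, was at 357 to 392 CPM in WT and 173 to 209 CPM in *Cldn2*KO, with no overlap (-0.96 ± 0.177).

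Other lists held few calls or none in the controls. With edgeR, none of 10 genes of IL-15 and common gamma chain signalling passed (median -0.29), 3 of them at an unadjusted p under 0.05. The receptor chain *Il15ra* was at 12.2 to 14.5 CPM in WT and 7.32 to 9.22 CPM in *Cldn2*KO, without overlap, and did not pass (-0.63 ± 0.299). None of 15 genes for other epithelial support of these lymphocytes passed (median -0.3, 4 unadjusted), nor did any of 13 intestinal epithelial transcription factors (median -0.04, 2 unadjusted). *Hnf4a* was at -0.07 ± 0.198 and *Hnf4g* at 0.14 ± 0.359, while *Cdx2* was at -2.13 ± 0.741 with WT control replicate 2 and 0.36 ± 0.212 without it, not called either way. Of the wider butyrophilin family, 19 genes were listed and 4 tested. The 15 not tested included all 11 *Skint* genes listed, and of the 4 tested the pseudogene *Btnl7-ps* was lower (-4.57 ± 0.932), a call that was lost without WT control replicate 2 (-2.83 ± 0.681).

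**Figure D4:**
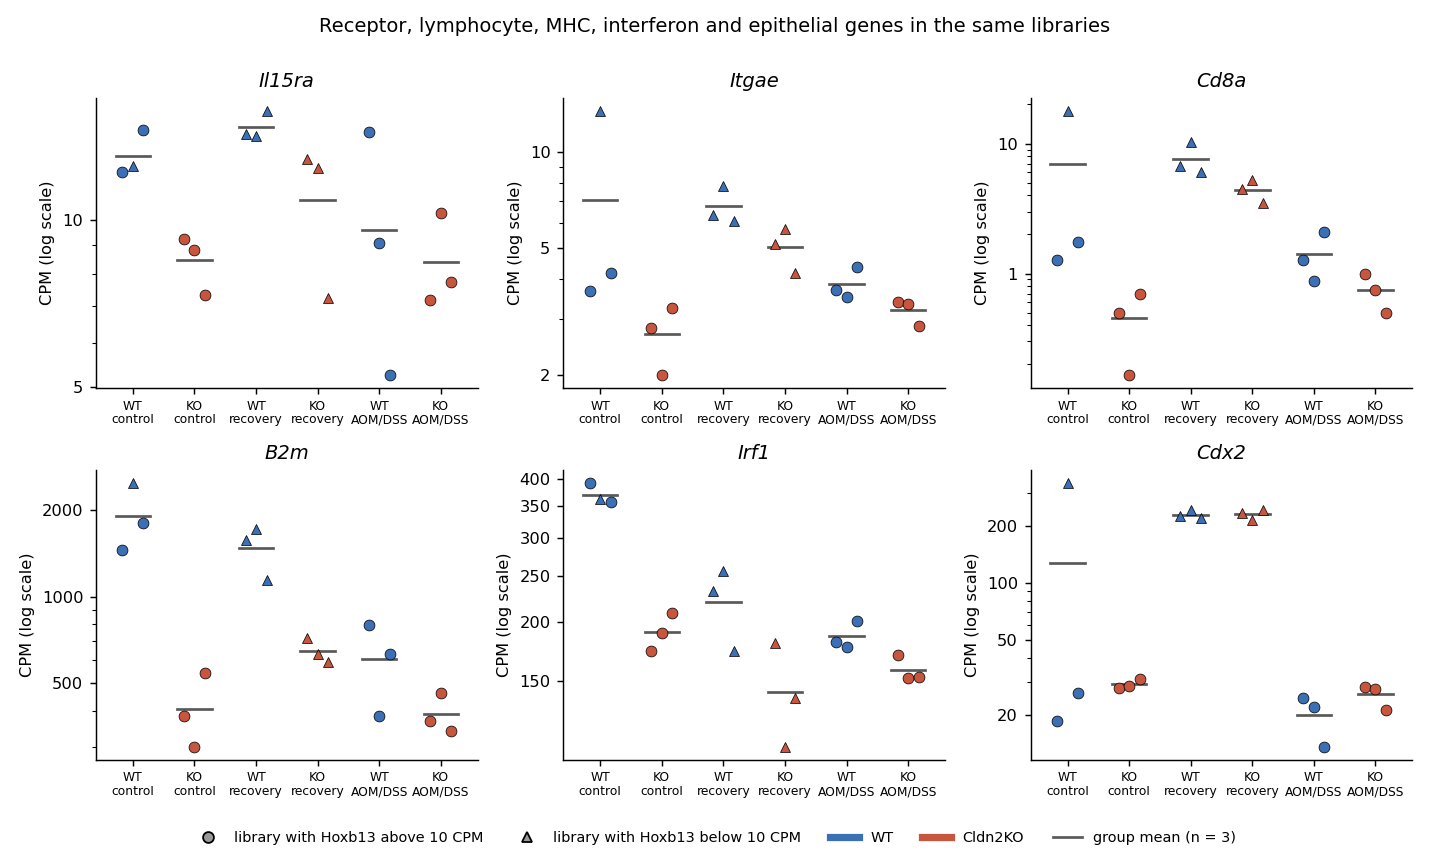
CPM (log axis) of 6 genes of the surrounding biology in the 18 libraries by group, with points, bars and triangles as in the plot of the 6 members. *Irf1* and *B2m* separate WT from *Cldn2*KO controls, whereas *Cdx2* separates the 7 libraries with *Hoxb13* below 10 CPM (214 to 337 CPM) from the other 11 (13.6 to 31 CPM).

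Between genotypes after recovery from colitis, no member was called by edgeR, DESeq2 or limma-voom, and none had an unadjusted p under 0.05 in edgeR, against 0.974% of genes called. This share was not stable. The 165 genes called became 3 without *Cldn2*KO recovery replicate 2, 453 without *Cldn2*KO recovery replicate 3 and 56 with sex-linked expression as a covariate. All 6 libraries in this comparison had *Hoxb13* below 10 CPM. The fitted log2 fold changes of *Cldn2*KO against WT were -0.24 ± 0.742 for *Btnl1*, -0.27 ± 0.442 for *Btnl2*, 0.4 ± 0.319 for *Btnl4*, 0.1 ± 0.337 for *Btnl6*, -0.52 ± 1.14 for *H2-T3* and -0.59 ± 0.464 for *Il15*. *Btnl2* had non-overlapping groups at 21.8 ± 0.219 and 18.1 ± 1.36 CPM, a 1.21-fold difference. A miss of the threshold does not show that the levels were alike. In the surrounding biology, 6 of 17 interferon response genes were lower in *Cldn2*KO and none higher (median -2.2), led by *Iigp1* (-4.09 ± 0.753), *Igtp* (-2.98) and *Gbp3* (-2.42), and 1 of 20 MHC class I genes was lower, the peptide transporter *Tap1* (-1.66 ± 0.358). *B2m* was at -1.19 ± 0.283 and did not pass. None of 14 T cell receptor and CD8 genes passed (median -1.27, 3 at an unadjusted p under 0.05 in edgeR). The same held for 16 intraepithelial lymphocyte genes (-0.7, 1 unadjusted), 15 epithelial support genes (-0.13, 5), 13 transcription factors (0.38, 3), 10 IL-15 signalling genes (0.1, 0) and 4 butyrophilin genes (-0.12, 0).

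Between genotypes in AOM/DSS, again no member was called by edgeR, DESeq2 or limma-voom or had an unadjusted p under 0.05 in edgeR, where 0.0059% of genes were called. *Btnl2* was at -0.9 ± 0.516 with groups that did not overlap (1.36 ± 0.12 CPM in WT and 0.721 ± 0.363 in *Cldn2*KO, 12 to 35 reads a library). The other 5 members overlapped, with fitted values between -0.2 (*Il15*) and 0.65 ± 2.37 (*H2-T3*, on 11 reads in all WT libraries and 22 in all *Cldn2*KO libraries). None of the 109 genes of the 8 lists was called by edgeR, with 12 at an unadjusted p under 0.05. The median log2 fold change was -0.41 for the interferon genes, 0 of 17 of which had a positive value, -0.32 for MHC class I genes and -0.87 for T cell receptor genes.

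For recovery against control in WT mice, no member was called by edgeR with all libraries or had an unadjusted p under 0.05, although 22.2% of genes were called, while limma-voom with sample weights called 4 (and 8086 of all genes) and DESeq2 0. The log2 fold changes were 0.85 ± 0.748 for *Btnl1*, 1.04 ± 1.15 for *H2-T3*, 0.74 ± 0.466 for *Il15*, -0.18 ± 0.442 for *Btnl2*, -0.22 ± 0.337 for *Btnl6* and -0.36 ± 0.319 for *Btnl4*. WT control replicate 2 decided these values. Without it 3 members were called, against 25.1% of genes: *H2-T3* (6.71 ± 0.474, adjusted p = 1.94e-07, 158 against 1.47 CPM), *Btnl1* (2.86 ± 0.554, adjusted p = 0.00189, 159 against 21.6 CPM) and *Il15* (1.54 ± 0.411, adjusted p = 0.0131, 51.6 against 17.4 CPM). Over the 15 alternatives the adjusted p ranged from 8.9e-08 to 0.811 for *H2-T3*, from 4.55e-06 to 0.777 for *Btnl1* and from 0.0027 to 0.863 for *Il15*. *Btnl2* was then at 0.84 ± 0.3, with groups that did not overlap, and missed the threshold, and *Btnl6* (0.11) and *Btnl4* (-0.16) did not pass. Without that library both remaining controls had *Hoxb13* and no recovery library did, so treatment and *Hoxb13* status cannot be told apart. With all libraries and *Hoxb13* as a covariate, *H2-T3* was at -0.53, *Btnl1* at -0.48, *Il15* at -0.17 and *Btnl2* at -1.21. That covariate sets the recovery libraries against WT control replicate 2, the 1 control without *Hoxb13*, so these values rest on 1 control library. For *Btnl2*, limma-voom with all libraries gave a call in the other direction (0.8), so its direction differed between fits.

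In the same comparison with all libraries, where 22.2% of all genes were called, 6 of 20 MHC class I genes were lower and none higher, among them *H2-Q6* (-1.85 ± 0.596), *Tap1* (-1.3) and *H2-Q4* (-1.01). Of 17 interferon genes 3 were lower, *Gbp2* (-2.08), *Psmb9* (-1.09) and *Irf1* (-0.75 ± 0.176). Of 13 transcription factors 4 were lower, among them *Klf4* (-1.39), *Elf3* (-1.14) and *Hnf4a* (-0.6 ± 0.199, not called without WT control replicate 2, at -0.49 ± 0.21), and of 15 epithelial support genes 4 were lower, among them the mucosal chemokine *Ccl28* (-1.47), *Nlrp6* (-0.98) and *Raet1e* (-0.83), and 1 higher, the gut-homing chemokine *Ccl25* (0.81 ± 0.209). These shares lay on both sides of that of all genes. Only *Cd4* was called among the T cell receptor and CD8 genes (-1.96 ± 0.524), no intraepithelial lymphocyte gene (3 at an unadjusted p under 0.05 in edgeR) or IL-15 signalling gene (1 unadjusted) was, and *Btn1a1* was the 1 higher butyrophilin gene (1.71 ± 0.582), a call lost without WT control replicate 2 (1.34 ± 0.607). Without WT control replicate 2, where 25.1% of all genes were called, 7 of 14 T cell receptor and CD8 genes were higher (*Cd8a* 2.32 ± 0.497, *Trdc* of the delta chain 2.73 ± 0.734) and 4 of 16 intraepithelial lymphocyte genes were higher, and *Cdx2* was at 3.34 ± 0.24. The MHC class I list then had 6 lower and 1 higher, the interferon list 5 of 18 lower, the transcription factors 3 higher and 3 lower, and the epithelial support list 4 lower and 1 higher.

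For recovery against control in *Cldn2*KO mice, 5 of 6 members were higher and called, where 19.4% of genes were. *H2-T3* was 107-fold higher (110 ± 29.2 against 1.03 ± 0.654 CPM, log2 fold change 6.74 ± 1.54), *Btnl2* 19.2-fold (18.1 against 0.94 CPM, 4.26 ± 0.53) and *Btnl1* 11-fold (134 ± 16.2 against 12.2 ± 2.33 CPM, 3.45 ± 0.824). *Btnl6* rose 2.29-fold (1.2 ± 0.342) and *Btnl4* 1.98-fold (0.98 ± 0.322, adjusted p = 0.0434), and *Il15* was at -0.24 ± 0.463 and did not pass. All 5 had groups that did not overlap. The 3 larger values were called in 14 of 15 alternatives each, all but the fit with *Hoxb13* as a covariate. That covariate, which rests on WT control replicate 2, gave *H2-T3* -0.53, *Btnl2* 2.2 and *Btnl1* 0.09. *Btnl4* was called in 6 of 15 (adjusted p 0.0175 to 0.826) and *Btnl6* in 10 of 15 (0.00262 to 0.865). Both lost their call without *Cldn2*KO control replicate 1 or 3 or *Cldn2*KO recovery replicate 1, and *Btnl4* also without recovery replicate 3. With sex-linked expression as a covariate in edgeR, both calls were lost too (adjusted p = 0.0757 for *Btnl4* and 0.0555 for *Btnl6*). The libraries of this comparison differ in *Hoxb13* exactly as they differ in treatment, so these cannot be told apart. *Xist* exceeded 100 CPM in *Cldn2*KO recovery replicates 2 and 3 and in no *Cldn2*KO control, so sex-linked expression differed as well.

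Some genes of lymphocytes were also called higher in *Cldn2*KO recovery than in *Cldn2*KO controls, where 19.4% of all genes were called in either direction. Of 14 T cell receptor and CD8 genes 4 were higher, led by *Cd3e* (3.7 ± 0.985), *Cd8a* (3.26 ± 0.846) and *Trgc2* (3.08 ± 0.814). *Cd8a* was at 0.493, 0.166 and 0.7 CPM in the controls, below all 3 recovery libraries (4.5, 5.24 and 3.49 CPM). Of 16 intraepithelial lymphocyte genes 5 were higher, led by *Gzma* (5.71 ± 1.46), *Ccl5* (4.33 ± 1.01) and *Gzmb* (4.24 ± 1.02), and 2 were lower, *Rgs1* (-1.42) and *Tyrobp* (-1.4). *Il2rb*, the receptor chain through which IL-15 signals, was the 1 higher gene of 10 in IL-15 signalling (3.1 ± 0.87), and *Btnl7-ps* the 1 higher butyrophilin gene (4.02 ± 0.917). Summed T and NK cell markers were 14.3 to 18 CPM in these recovery libraries and 2.5 to 11.3 in the controls, and B and plasma cell markers 42.2 to 43.5 against 22 to 266 CPM.

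Of 13 transcription factors in that comparison, where 19.4% of all genes were called, 3 were higher, *Isx* (7.37 ± 1.51), *Cdx2* (2.99 ± 0.765) and *Creb3l3* (2.91 ± 0.692), and 2 lower, *Klf4* (-0.84) and *Elf3* (-0.61). Isx and Creb3l3 are factors of absorptive enterocytes, and *Cdx1* (-0.11 ± 0.205), *Hnf4a* (-0.12 ± 0.198) and *Hnf4g* (-0.19 ± 0.359) did not pass. Of 15 epithelial support genes 2 were lower, *Il18* (-2.21 ± 0.352) and *Raet1e* (-1.17 ± 0.248). The MHC class I list had 1 lower gene of 20, *Mr1* (-1.58), and the interferon list 2 of 17, *Gbp2* (-2.98) and *Gbp3* (-1.54), and the shares called in these last 3 lists lay below that of all genes.

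**Figure D5:**
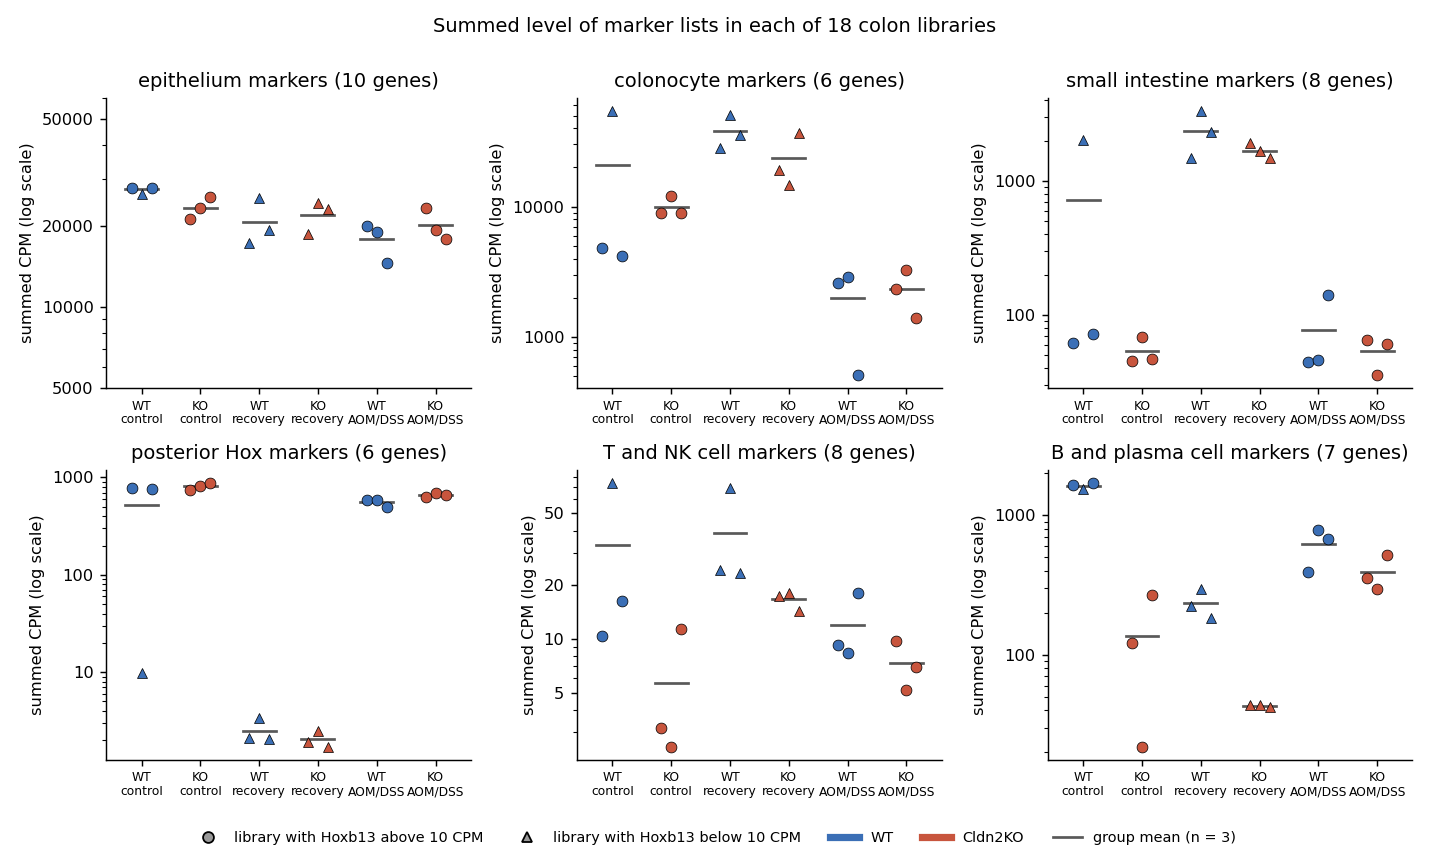
Summed CPM (log axis) of 6 marker lists in the 18 libraries by group, with points, bars and triangles as in the plot of the 6 members. Epithelial markers stay between 14600 and 27900 CPM, whereas colonocyte and small intestinal markers are higher, and posterior Hox markers lower, in the libraries drawn as triangles.

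For AOM/DSS against control in WT mice, 4 of 6 members were lower and called, where 10.4% of genes were. *H2-T3* fell to 0.171 ± 0.0738 CPM from a mean of 77.4 CPM (log2 fold change -8.77 ± 1.82), *Btnl2* was 18.2-fold lower (-4.18 ± 0.517), *Btnl1* 13.5-fold (-3.76 ± 0.841) and *Btnl6* 3.97-fold (-1.99 ± 0.35). *Btnl4* was at -1.02 ± 0.322 (adjusted p = 0.0543) and *Il15* at -0.75 ± 0.468, neither called by edgeR, while DESeq2 called *Btnl4* too (-1.02, adjusted p = 0.0204, range over the alternatives 0.0204 to 0.193). Without WT control replicate 2, 3 members were called against 1.99% of genes: *Btnl2* was 8.83-fold lower (-3.16 ± 0.312, adjusted p = 0.000168), *H2-T3* 8.63-fold (-3.09 ± 0.576, adjusted p = 0.015) and *Btnl6* 3.12-fold (-1.66 ± 0.337, adjusted p = 0.0221). *Btnl1* was then 3.31-fold lower and missed the threshold (-1.75 ± 0.504, adjusted p = 0.0807). *Btnl4* was at -0.82 ± 0.34 and *Il15* at 0.05 ± 0.394. Across the 15 alternatives the adjusted p ranged from 2.22e-14 to 0.155 for *Btnl2*, from 3.27e-06 to 0.155 for *Btnl6*, from 1.06e-08 to 0.169 for *H2-T3* and from 0.000172 to 0.175 for *Btnl1*, the upper value each time from the fit to these groups alone. Without WT AOM/DSS replicate 3 the calls of *H2-T3* (adjusted p = 0.0821) and *Btnl1* (0.0839) were lost. *H2-T3* also lost its call with limma-voom (-3.13, adjusted p = 0.061) and *Btnl1* with *Hoxb13* as a covariate (-1.73, adjusted p = 0.0815). Colonocyte markers (6 genes, all detected) summed to 514 to 2870 CPM in WT AOM/DSS against 4210 to 4860 CPM in WT control replicates 1 and 3. Their part in the result was not tested.

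In the same comparison 10.4% of all genes were called, or 1.99% without WT control replicate 2. Of 20 MHC class I genes 10 were lower and none higher (6 without that library). *B2m* was at -1.66 ± 0.287 (-1.45 without that library), *H2-Q2* at -2.46 and *H2-Q1* at -2.12, and the last 2 were not called without it. Of 17 interferon genes 3 were lower, *Psmb8* (-1.54), *Psmb9* (-1.45) and *Irf1* (-0.99 ± 0.177), and without that library 2 of 18, the call of *Psmb8* being lost (-1.75 ± 0.431). Of 13 transcription factors 4 were lower, among them *Cdx2* (-2.66, and -0.17 without that library), *Klf4* (-1.04) and *Hnf4a* (-0.82 ± 0.199). Without that library 2 of the 13 were lower, and *Cdx2* and *Hnf4a* (-0.71 ± 0.21) were not called. The calls in the T cell receptor list (2 of 14, *Trgc4* at -3.08 and *Trgc2* at -2.59) and in the intraepithelial lymphocyte list (3 of 16, *Ccl5* at -3.23, *Cd7* at -2.98 and *Rgs1* at -2.1) were all lost without it. *Nlrp6* was the 1 lower epithelial support gene of 15 (-1.98 ± 0.34), *Btnl7-ps* (-5.38) and *Btnl5-ps* (-1.12) were the 2 lower butyrophilin genes of 4 (without that library -3.63 and still called, and -1.0 and not called), and no IL-15 signalling gene was called (1 at an unadjusted p under 0.05 in edgeR).

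For AOM/DSS against control in *Cldn2*KO mice, no member was called by edgeR, where 0.195% of genes were, and *Il15* alone had an unadjusted p under 0.05. DESeq2 called 0 members and limma-voom 2. All 6 of these libraries had *Hoxb13* above 10 CPM. *Il15* was 2.53-fold lower, at 15.9 ± 1.81 against 40.3 ± 9.05 CPM with no overlap between the groups (-1.34 ± 0.472, adjusted p = 0.205). *H2-T3* was at -1.9 ± 1.8, also without overlap, on 22 reads in AOM/DSS and 58 in controls. *Btnl1* (-0.9 ± 0.777), *Btnl6* (-0.61 ± 0.339), *Btnl2* (-0.36 ± 0.535) and *Btnl4* (-0.12 ± 0.32) had overlapping groups. None of the 109 genes of the 8 lists was called by edgeR, with 18 at an unadjusted p under 0.05, and the lists' median log2 fold changes lay between -0.34 and 0.52.

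The interaction contrasts ask whether a response differed between genotypes. For recovery, *Btnl2* was the 1 member called by edgeR, where 0.13% of genes were: the response of *Cldn2*KO mice exceeded that of WT mice by 4.44 ± 0.68 on the log2 scale (adjusted p = 0.0252), and by 3.41 ± 0.414 without WT control replicate 2 (adjusted p = 0.00585). It was called in 13 of 21 alternatives (adjusted p 1.74e-07 to 0.14) and was lost without *Cldn2*KO control replicate 1 or 2, any WT recovery replicate, or *Cldn2*KO recovery replicate 2 or 3. The 2 contrasts combined here share no library. *Btnl2* differed 1.21-fold between genotypes in recovery and 26.4-fold in the controls, or 12.8-fold without that library. *H2-T3* (5.7 ± 1.84), *Btnl1* (2.6 ± 1.07), *Btnl6* (1.41 ± 0.479) and *Btnl4* (1.34 ± 0.453) had positive values that did not pass, and *Il15* was at -0.98 ± 0.657. DESeq2 also called *H2-T3*, and limma-voom *Il15*. Without that library *H2-T3* was at 0.01 ± 0.404, *Btnl1* at 0.58 ± 0.664, *Btnl6* at 1.07 ± 0.455, *Btnl4* at 1.13 ± 0.46 and *Il15* at -1.8 ± 0.534, none called. For AOM/DSS no member was called by edgeR, where 0.0118% of genes were, with 4 at an unadjusted p under 0.05, 2 called by DESeq2 and 1 by limma-voom. *Btnl2* was at 3.82 ± 0.726 (adjusted p = 0.213), or 2.81 ± 0.446 (adjusted p = 0.0437, against 0.0288% of genes called) without WT control replicate 2, with adjusted p from 0.000289 to 0.803 over its alternatives. With and without that library, *H2-T3* was at 6.87 and 1.2, *Btnl1* at 2.85 and 0.85, *Btnl6* at 1.38 and 1.06, *Btnl4* at 0.9 and 0.71, and *Il15* at -0.59 and -1.38, none called. None of the 109 genes of the 8 lists was called by edgeR in either interaction, with 23 and 35 at an unadjusted p under 0.05 for recovery and AOM/DSS.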

How the data were processed

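RNA-seq counts per gene from 18 libraries, each run on 2 lanes, were used. The deposited values are raw read counts made by the authors. The submitters' processing notes name HISAT2, Subread and featureCounts on GRCm38, whereas the study's methods name TopHat2, featureCounts and DESeq2. Versions, strand setting and the handling of multiply aligned reads were not given in the sources used here.

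Lanes of a library were summed, as lane counts were near sampling noise (chi-square divided by its degrees of freedom 1.08 to 1.17, and 11.0 or more between replicates). Totals of 17.6 to 27.4 M reads bound the precision of low genes such as *H2-T3*. Genes were filtered with filterByExpr (16937 of 47729 kept) and fitted over all 6 groups with TMM scaling and the quasi-likelihood test of edgeR 4.0.16 (limma 3.58.1, R 4.3.3). Calls used a Benjamini-Hochberg adjusted p under 0.05 over all tested genes. Each library has its own sample label and was taken as a separate mouse. The 6 members and all gene lists were chosen with earlier results of these data known. Named list genes were those called with the largest fold change, at most 3 per list and direction, plus fixed genes. Alternatives included DESeq2 1.42.0, limma-voom, covariates and leaving out each library. Scripts were tested on simulated data. RefSeq upstream sequences (GRCm38.p6) were present for 5 of 6 members and not for *Il15*. Some list genes are not reported here by name.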

Additional observations from a re-analysis of the deposited data

Results flagged for a closer look

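The response of *Btnl2* to recovery differed between the genotypes by edgeR's test of the difference itself (adjusted p = 0.0252), a call kept in 13 of 21 alternatives. Its log2 fold change from control to recovery was 4.44 ± 0.68 (SE) higher in *Cldn2*KO than in WT mice, or 3.41 ± 0.414 without WT control replicate 2. Mean levels were 24.8 CPM in WT controls, 21.8 in WT recovery, 0.94 in *Cldn2*KO controls and 18.1 in *Cldn2*KO recovery (n = 3 libraries each). Without WT control replicate 2 the WT controls were at 12.7 and 11.4 CPM, and WT recovery was 1.81-fold higher than control in place of 1.14-fold lower. The gene was chosen with these levels known, and all recovery libraries lacked *Hoxb13*, so the value is a description. Groups of 3 libraries were not tested for outlying samples by a gap criterion, and without each library in turn the value ranged from 3.41 to 4.79.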

How the results depend on the processing

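Of 887 alternative values of 54 member fold changes, 795 kept direction and side of the threshold, 34 lost a call with the direction kept, 29 gained one with the direction kept and 29 changed sign, of which 1 also lost a call and 1 gained one. The cause was not tested. Counts over all genes moved as well and stand in brackets after most member counts. Between genotypes, members called numbered 0 in every alternative in recovery (3 to 1900) and in AOM/DSS (1 to 4). Members called in *Cldn2*KO against WT controls numbered 1 (199), but 4 with DESeq2 (688), 4 with limma-voom (2526), 0 with only the groups compared (131) and 1 to 3 when 1 library was left out (25 to 300). *Btnl1* and *H2-T3* gained calls there without WT control replicate 1 or 3. Control libraries share replicate numbers, but the numbers did not pair them (correlations of deviations 0.157, 0.00234 and 0.0794), and with a replicate block 2 members were called (179). For recovery against control in WT, 0 (3767) became 4 with limma-voom (8086), 1 with *Hoxb13* as a covariate (1477) and 0 to 3 without 1 library (1846 to 4350). *Btnl2* was lower with the covariate (-1.21), which rests on WT control replicate 2 here, and higher with limma-voom (0.8). In *Cldn2*KO, 5 (3291) became 3 with a covariate for sex-linked expression (1887), 0 with *Hoxb13* as a covariate (133) and 3 to 5 without 1 library (1972 to 2827). *Btnl4* there lost its call without *Cldn2*KO control replicate 1 (adjusted p = 0.12) or 3 (0.158) or recovery replicate 1 (0.15) or 3 (0.073), and *Btnl6* without control replicate 1 (0.0742) or 3 (0.0967) or recovery replicate 1 (0.074). For AOM/DSS against control in WT, 4 (1761) became 0 with only the groups compared (7), 5 with DESeq2 (3033), which also called *Btnl4*, and 2 to 4 without 1 library (170 to 1696), *H2-T3* also losing its call with limma-voom (-3.13) and *Btnl1* with the *Hoxb13* covariate (-1.73). In *Cldn2*KO, 0 (33) became 2 with limma-voom (3061) and 1 with only the groups compared (920). The recovery interaction called 1 (22), but 2 with DESeq2 (931, *H2-T3* added), 2 with limma-voom (1754, *Il15* added), 0 with only the groups compared (9) and 0 to 1 without 1 library. The AOM/DSS interaction called 0 (2), but 2 with DESeq2 (87), 1 with limma-voom (288), 1 with *Hoxb13* as a covariate (5) and 0 to 1 without 1 library. The *Btnl2* recovery interaction, at 3.41 to 4.79 without 1 library, was lost (adjusted p 0.0517 to 0.14) without *Cldn2*KO control replicate 1 or 2, any WT recovery replicate, or *Cldn2*KO recovery replicate 2 or 3.

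Sign changes were as follows. In *Cldn2*KO against WT recovery, *Btnl6* was at -0.11 with limma-voom and -0.13 to 0.23 without 1 library. In AOM/DSS between genotypes, *Btnl1* was at -0.43 with limma-voom, -0.18 with the sex covariate and -0.57 to 0.48 without 1 library. *Btnl4* there was at 0.07 with the sex covariate and -0.28 to 0.13 without 1 library, *Btnl6* at -0.22 with limma-voom and -0.23 to 0.22, and *H2-T3* at -0.06 to 0.96. For recovery against control in WT, limma-voom gave *Btnl2* 0.8 and *Btnl6* 0.26, leaving out 1 library gave -0.53 to 0.84 and -0.4 to 0.11, and the *Hoxb13* covariate gave *Btnl1* -0.48, *H2-T3* -0.53 and *Il15* -0.17. In *Cldn2*KO that covariate gave *H2-T3* -0.53, and *Il15* was at -0.67 to 0.06 without 1 library. The covariate rests on WT control replicate 2, the 1 control without *Hoxb13*. For AOM/DSS against control in WT, *Il15* was at 0.18 with limma-voom, 0.07 with the *Hoxb13* covariate and -1.04 to 0.05 without 1 library. In *Cldn2*KO, *Btnl2* was at -0.84 to 0.02 and *Btnl4* at -0.35 to 0.26. *H2-T3* gave no value between genotypes in AOM/DSS under 1 alternative, where too few reads passed the filter, and its 2 to 14 reads per AOM/DSS library limit what could be detected.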
